A study of Mus musculus with 10 samples.

Results

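The 6 guanylate-binding protein genes Gbp4, Gbp6, Gbp8, Gbp9, Gbp10 and Gbp11 lie side by side on mouse chromosome 5 and are described here in Ly6Chigh monocytes of the spleen. They were chosen by gene symbol, with earlier results of these data known, and are 6 of the 24421 gene symbols found in all 10 RNA sequencing libraries. The libraries came from C57BL/6 mice on day 5 after surgery, with 3 WT mice after sham surgery (WT sham 1, 2 and 3), 3 WT mice after myocardial infarction (MI) by permanent ligation of a coronary artery (WT MI 2, 3 and 4) and 4 Foxp3DTR mice after MI (Foxp3DTR MI 1 to 4). Per the methods, all mice were male and between 8 and 10 weeks of age. In Foxp3DTR mice the promoter of Foxp3 drives a human receptor for diphtheria toxin (DTX), and the toxin then ablates Foxp3+ regulatory T-cells (Tregs). For ablation, 500 ng DTX per mouse was given on days 2 and 1 before surgery and 250 ng on day 2 after it. Ablation was partial, since the study found Foxp3+ cells fewer but not absent in the spleen and other lymphoid organs. The study describes the WT mice set against Foxp3DTR mice after MI as given the toxin too. Its methods describe the later dose as following either MI or sham surgery, but the labels give no toxin for single libraries. From the labels, which WT libraries came from mice given the toxin is therefore not known here. Foxp3DTR MI mice differ from WT MI mice at least in genotype and in the ablation of Tregs, and from WT sham mice in surgery as well.

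Guanylate-binding proteins are large GTPases that cells make in response to interferons, above all to interferon-gamma (IFN-γ) from T-cells and NK cells. They assemble on membranes of vacuoles that hold microbes and on bacteria set free in the cytosol, where they help to break the membrane and to alert the inflammasomes. In the mouse the family is split between a cluster on chromosome 3 and the cluster on chromosome 5 described here, and in macrophages and monocytes these genes are widely read as a record of exposure to interferon.

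All 6 genes were on the minus strand (mm10). From the lower to the higher coordinate, the order was Gbp8 (chr5:105014153-105053561), Gbp9 (chr5:105078394-105110292), Gbp4 (chr5:105115767-105139586), Gbp10 (chr5:105215699-105239533), Gbp6 (chr5:105270702-105293699) and Gbp11 (chr5:105323026-105346476). Together they spanned 332.3 kb. The reference annotation, GENCODE release M21, holds Gbp11 as a polymorphic pseudogene and the other 5 as protein-coding genes. Its models of Gbp8 and Gbp9 reach past the bounds given in the deposited tables to the 5′ end of Gbp4, so that in GENCODE these 3 genes overlap.

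The members resemble each other closely in sequence, which bears on how far their levels can be told apart. The stretch of coding sequence around the P-loop, the turn of the GTPase domain that holds the phosphates of GTP, is shown for each member from 5′ to 3′ on the coding strand, read from the GENCODE M21 transcripts (GRCm38, the same assembly as mm10). Capitals mark the 8 codons of the P-loop, which begins at codon 43 in all 6, and each stretch lies within 1 exon (Gbp4 at chr5:105136854-105136913, Gbp6 at chr5:105290853-105290912, Gbp8 at chr5:105050880-105050939, Gbp9 at chr5:105105680-105105739, Gbp10 at chr5:105235967-105236026 and Gbp11 at chr5:105343762-105343821, all on the minus strand).
Gbp4: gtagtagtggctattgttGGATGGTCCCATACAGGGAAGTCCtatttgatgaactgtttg
Gbp6: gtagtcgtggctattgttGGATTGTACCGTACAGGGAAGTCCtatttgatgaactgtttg
Gbp8: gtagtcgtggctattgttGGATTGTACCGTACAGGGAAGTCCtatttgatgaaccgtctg
Gbp9: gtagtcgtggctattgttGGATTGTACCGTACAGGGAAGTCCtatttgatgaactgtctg
Gbp10: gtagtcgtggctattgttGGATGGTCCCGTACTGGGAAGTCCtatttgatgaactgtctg
Gbp11: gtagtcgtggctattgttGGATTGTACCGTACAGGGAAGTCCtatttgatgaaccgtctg

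Over these 60 bases Gbp8 and Gbp11 had 0 differing bases, and Gbp9 differed from each of Gbp6, Gbp8 and Gbp11 at 1 base. The 24 bases in capitals were the same in Gbp6, Gbp8, Gbp9 and Gbp11. Gbp10 differed from those 4 genes at 3 of the bases in capitals, as did Gbp4, and Gbp4 and Gbp10 differed from each other at 2 of them. Over the aligned bases of the coding sequence, gaps left out, Gbp6 and Gbp10 were the closest pair, with 98.4% identity over 1833 bases. The other pairs ranged from 90.0% (Gbp9 and Gbp11) to 93.8% (Gbp8 and Gbp11). With gaps counted Gbp6 and Gbp10 stayed at 98.4%, and the others ranged from 76.5% (Gbp8 and Gbp9) to 90.7% (Gbp4 and Gbp11). Gbp8 has the shortest coding sequence, at 1575 bases.

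With reads of 50 bases, this leaves some genes better resolved than others. Of all 50-base windows of the transcript, 9.5% also occurred in another member for Gbp9, 12.8% for Gbp4, 19.1% for Gbp11 and 21.2% for Gbp8. The share was 70.3% for Gbp6 and 73.9% for Gbp10. Most windows of both also lie in Gm43302, a gene model that spans Gbp10 and Gbp6 in GENCODE M21 (90.2% of the windows of Gbp6 and 79.2% of those of Gbp10) and that was not analysed here. The split of reads between Gbp6 and Gbp10 is therefore uncertain, and each of the 6 levels may hold some reads of the others.

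The libraries were made from 20 to 50 pg of RNA. Depth, inferred from the tables because they hold no read counts, in units of 1e6 reads, lay between 3.13 (WT sham 2) and 8.40 (WT MI 3). It is the depth behind the deposited values and lies below the number of reads that the study gives as sequenced. The sort for CD11b+ Ly6G- F4/80+ Ly6Chigh CD115+ cells was reflected in the RNA, with all 8 monocyte and sort markers (Itgam, Adgre1, Csf1r, Ly6c1, Ly6c2, Ccr2, Cd14 and Lyz2) present. Their summed level was 35180 to 46150 transcripts per 1e6 transcripts (TPM) in WT sham, 35370 to 39200 TPM in WT MI and 23860 to 31800 TPM in Foxp3DTR MI, without overlap between the MI groups, although limma called 0 of the 8 between them (2 at an unadjusted p under 0.05). Lyz2 made up most of the sum, with 30660 to 34070 TPM in WT MI and 16750 to 23810 TPM in Foxp3DTR MI. Other markers went the other way, Ly6c2 being at 1985 to 2689 TPM in WT MI and 3667 to 4757 TPM in Foxp3DTR MI. Ly6c1 was at 208 to 511 TPM in WT MI and 611 to 782 TPM in Foxp3DTR MI. Of the 8 log2 fold changes between the MI groups, 4 were positive. The libraries did not stand alike in markers of other cells either. The summed level of 9 T cell genes was 16.5 to 20.9 TPM in WT MI and 43.5 to 138 TPM in Foxp3DTR MI, and WT sham 3, at 168 TPM, stood apart from WT sham 1 (21.6 TPM) and WT sham 2 (32.8 TPM).

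Gbp4 was among the members with the strongest contrast. Its level was 6.32, 6.29 and 32.6 TPM in WT sham 1, 2 and 3, 5.30, 10.9 and 6.40 TPM in WT MI 2, 3 and 4, and 118, 128, 159 and 80.4 TPM in Foxp3DTR MI 1 to 4. The lowest Foxp3DTR MI library thus exceeded every WT library, including WT sham 3. The group means were 121 ± 32.4 TPM (SD, n = 4) in Foxp3DTR MI and 7.52 ± 2.95 TPM (SD, n = 3) in WT MI, a ratio of 16.1. The bulk libraries cannot tell more RNA per cell from more cells that carry the RNA.

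Gbp6 and its near copy Gbp10 had the lowest levels next to Gbp11 in WT mice. Gbp6 was at 3.53, 2.19 and 27.6 TPM in WT sham 1, 2 and 3, at 3.52, 7.29 and 4.49 TPM in WT MI 2, 3 and 4, and at 65.9, 90.6, 95.1 and 48.2 TPM in Foxp3DTR MI 1 to 4. Gbp10 was at 2.57, 1.82 and 20.1 TPM in WT sham 1, 2 and 3, at 2.78, 5.61 and 2.95 TPM in WT MI 2, 3 and 4, and at 45.9, 59.5, 64.2 and 34.4 TPM in Foxp3DTR MI 1 to 4. For neither gene did any Foxp3DTR MI library overlap a WT library, and the ratio of the Foxp3DTR MI mean to the WT MI mean was 14.7 for Gbp6 and 13.5 for Gbp10.

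Gbp8 lies at the far end of the cluster from Gbp11. It was at 5.82, 5.66 and 28.6 TPM in WT sham 1, 2 and 3, at 4.75, 8.88 and 5.62 TPM in WT MI 2, 3 and 4, and at 76.5, 71.5, 74.4 and 35.4 TPM in Foxp3DTR MI 1 to 4. Here 3 Foxp3DTR MI libraries stood close together and replicate 4 well below them, although still above WT sham 3. The Foxp3DTR MI mean of 64.5 ± 19.5 TPM (SD, n = 4) was 10.1 times the WT MI mean of 6.41 ± 2.18 TPM (SD, n = 3).

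Gbp11, the annotated pseudogene, was present as RNA in every library but was the least abundant member. Its level was 1.46, 1.80 and 6.74 TPM in WT sham 1, 2 and 3, 1.37, 2.53 and 1.76 TPM in WT MI 2, 3 and 4, and 17.0, 19.6, 20.3 and 11.2 TPM in Foxp3DTR MI 1 to 4. Foxp3DTR MI libraries were again higher than all WT libraries, and the ratio of the mean to that of WT MI was 9.02.

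Gbp9 differed from the other members in its level in WT mice. It was at 53.4, 48.6 and 77.1 TPM in WT sham 1, 2 and 3, at 44.5, 56.5 and 42.8 TPM in WT MI 2, 3 and 4, and at 169, 168, 193 and 121 TPM in Foxp3DTR MI 1 to 4. It was thus already abundant in WT monocytes, and the groups were still separate. Its Foxp3DTR MI mean of 163 ± 30.0 TPM (SD, n = 4) was 3.40 times the WT MI mean of 48.0 ± 7.48 TPM (SD, n = 3), the smallest ratio of the 6.

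**Figure D1:**
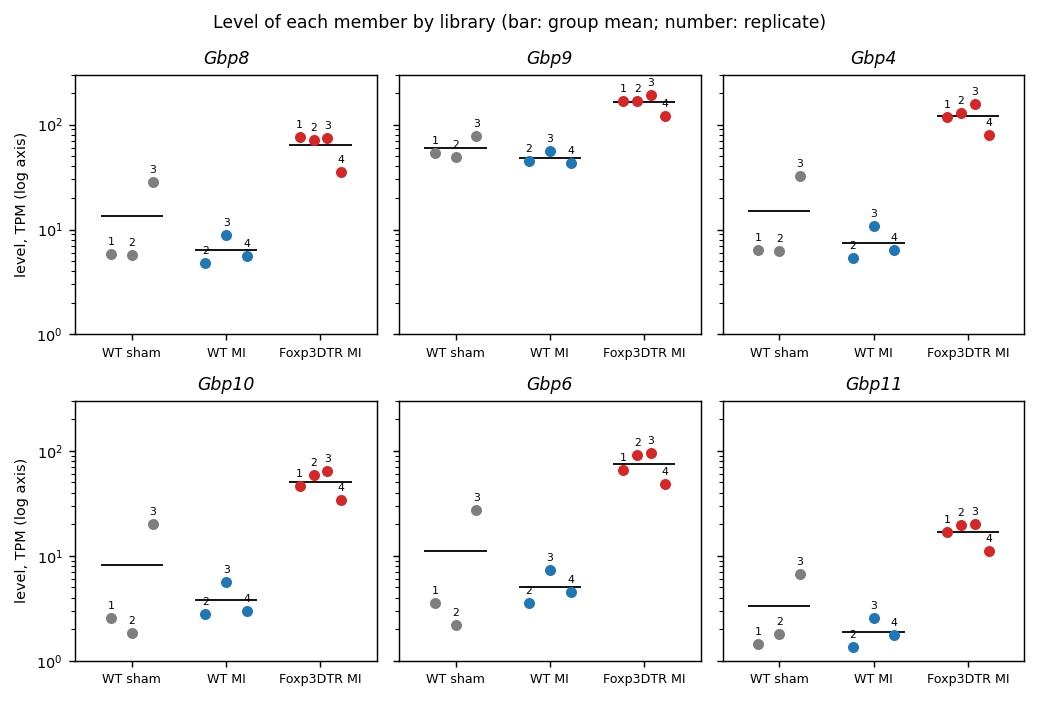
Level of each member in TPM on a log axis, with 1 panel per gene in chromosomal order, 1 point per library numbered by replicate, and a bar at the group mean. In every panel the 4 Foxp3DTR MI libraries lie above all 6 WT libraries, WT sham 3 is the highest sham library and Foxp3DTR MI 4 the lowest Foxp3DTR MI library.

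The same libraries were high or low for member after member. WT sham 3 was the highest of its group in 6 of 6 members and WT MI 3 the highest of its group in 6 of 6. Foxp3DTR MI 4 was the lowest of its group in 6 of 6, and Foxp3DTR MI 3 was the highest in 5, Gbp8 being highest in Foxp3DTR MI 1. On the log2 scale the correlation between 2 members over the 10 libraries lay between r = 0.969 and r = 0.999 for the 15 pairs, a description of libraries that fall into separate groups and of genes that share sequence.

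The first comparison, Foxp3DTR MI against WT MI, sets monocytes after partial ablation of Tregs against those of WT mice, both after MI. With limma on log2(TPM + 1) after scaling each library, all 6 members passed the filter on low values (1 TPM in at least 3 libraries) and 6 of 6 were higher at a Benjamini-Hochberg adjusted p under 0.05, where 0.688% of the 12938 genes tested were called higher. All 6 also had no overlap between the groups, with every Foxp3DTR MI library above every WT MI library, which held for 9.97% of all genes. The study itself shows all members but Gbp11 among its regulated genes from these libraries, so that their direction is not independent evidence.

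Gbp4 differed most, by a log2 fold change of 3.63 ± 0.47 (SE, limma adjusted p = 0.0151). Gbp6 followed at 3.42 ± 0.60 (limma adjusted p = 0.0332), Gbp10 at 3.24 ± 0.56 (limma adjusted p = 0.0332) and Gbp8 at 2.90 ± 0.46 (limma adjusted p = 0.0248). Gbp11 rose by 2.44 ± 0.36 (limma adjusted p = 0.0200), a fold change that the added 1 TPM understates because of its low level. Gbp9 rose least, by 1.49 ± 0.16 (limma adjusted p = 0.0151), and yet had the lowest p of all 12938 genes, since its libraries varied little within groups. By size of the fold change Gbp4 ranked 12 and Gbp9 165 among all genes. The median log2 fold change was 3.07 over the members and 0.001 over all genes. Taken as 1 gene, Gbp6 and Gbp10 together rose by 3.47 ± 0.62 (limma adjusted p = 0.0372).

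The direction held in every fit, but the calls rested on most of the libraries. Without WT MI 2 the count of members called fell from 6 to 0 (limma, with 6 at an unadjusted p under 0.05, as were 2424 of 12899 genes, or 18.8%), without Foxp3DTR MI 3 it was 1 (Gbp9), and without WT MI 3, WT MI 4, Foxp3DTR MI 1 or Foxp3DTR MI 2 it was 2 in each case (Gbp4 and Gbp9). It was 4 without Foxp3DTR MI 4 and 6 without any one of the sham libraries. Calls over all genes moved as well, from 89 higher with all libraries to 0 without WT MI 2 and 2 without Foxp3DTR MI 3. They were 11 without WT MI 3, 28 without WT MI 4, 15 without Foxp3DTR MI 1, 14 without Foxp3DTR MI 2 and 29 without Foxp3DTR MI 4. Without WT sham 1, 2 or 3 they were 79, 253 and 244. Between 12772 and 12899 genes were tested in these fits. Without the filter on low values, which raises the number of genes tested to 24421, 0 members passed limma's adjusted threshold, with 6 of 6 at an unadjusted p under 0.05, as were 2544 genes (10.4%). In that fit 2 of all genes were called higher.

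**Figure D2:**
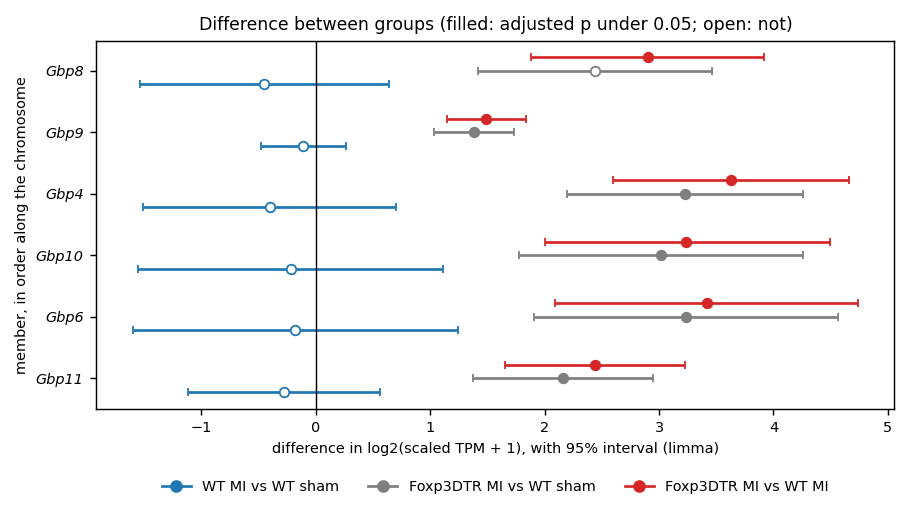
Difference between groups in log2(scaled TPM + 1) for each member, with 95% intervals from limma and filled points for an adjusted p under 0.05. The Foxp3DTR MI points lie to the right of 0 against both WT groups, with Gbp9 at the smallest difference, and the WT MI against WT sham intervals all include 0.

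The second comparison, WT MI against WT sham, sets both surgeries against each other in WT mice. Since the toxin is not known per library, surgery and toxin cannot be told apart here. None of the 6 members was called by limma, 0 were under an unadjusted p of 0.05, and the groups overlapped in 6 of 6, where 0.00% of all genes were called, 4.64% had an unadjusted p under 0.05 and 6.91% had no overlap. The log2 fold changes were -0.40 ± 0.50 for Gbp4, -0.18 ± 0.64 for Gbp6, -0.45 ± 0.49 for Gbp8, -0.11 ± 0.17 for Gbp9, -0.22 ± 0.60 for Gbp10 and -0.28 ± 0.38 for Gbp11 (SE), with limma adjusted p between 0.967 and 0.993. The intervals were wide: for Gbp4 the 95% interval ran from -1.51 to 0.70, and only that of Gbp9, from -0.48 to 0.26, stayed within a change of 1 on the log2 scale.

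The sign of these differences rested on WT sham 3. Against the mean of WT sham 1 and 2, WT sham 3 was 9.63 times as high for Gbp6, 9.17 times for Gbp10, 5.17 times for Gbp4, 4.99 times for Gbp8, 4.14 times for Gbp11 and 1.51 times for Gbp9. Without it all 6 differences turned positive, from 0.06 for Gbp9 to 0.76 for Gbp6, and again none was called, with Gbp6 and Gbp10 at an unadjusted p under 0.05, as were 666 of 12772 genes (5.21%). Without WT MI 2 the difference of Gbp6 was 0.02.

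The third comparison, Foxp3DTR MI against WT sham, shares its Foxp3DTR MI libraries with the first. Here 5 of 6 members were called higher, where 0.386% of all genes were, and 6 of 6 had every Foxp3DTR MI library above every sham library, as had 9.80% of all genes. The log2 fold changes were 3.24 ± 0.60 for Gbp6, 3.23 ± 0.47 for Gbp4, 3.02 ± 0.56 for Gbp10, 2.16 ± 0.36 for Gbp11 and 1.38 ± 0.16 for Gbp9 (SE), with limma adjusted p between 0.0116 and 0.0498. Gbp8, at 2.44 ± 0.46, missed the threshold (limma adjusted p = 0.0508). Without WT sham 3 the count was 6 and the log2 fold changes were larger, at 4.18 for Gbp6, 3.94 for Gbp4, 3.90 for Gbp10, 3.13 for Gbp8, 2.65 for Gbp11 and 1.55 for Gbp9. The count was 0 without WT sham 1 or without WT sham 2, 2 without any one WT MI library and 1 (Gbp9) without any one Foxp3DTR MI library. Calls over all genes moved as well. With all libraries 50 genes were called higher, against 2 without WT sham 1, 3 without WT sham 2 and 412 without WT sham 3. The number was 16 to 22 without any one WT MI library and 4 to 6 without any one Foxp3DTR MI library.

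The make-up of the cluster's RNA was not the same in all libraries. Summed over the 6 genes, the level was 73.1, 66.3 and 193 TPM in WT sham 1, 2 and 3, 62.3, 91.7 and 64.0 TPM in WT MI 2, 3 and 4, and 492, 538, 606 and 331 TPM in Foxp3DTR MI 1 to 4. Gbp9 supplied 61.7 to 71.5% of that sum in WT MI and 31.3 to 36.7% in Foxp3DTR MI. In WT sham 3 its share, 40.0%, was close to that of Foxp3DTR MI, while it was 73.1% and 73.2% in WT sham 1 and 2.

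**Figure D3:**
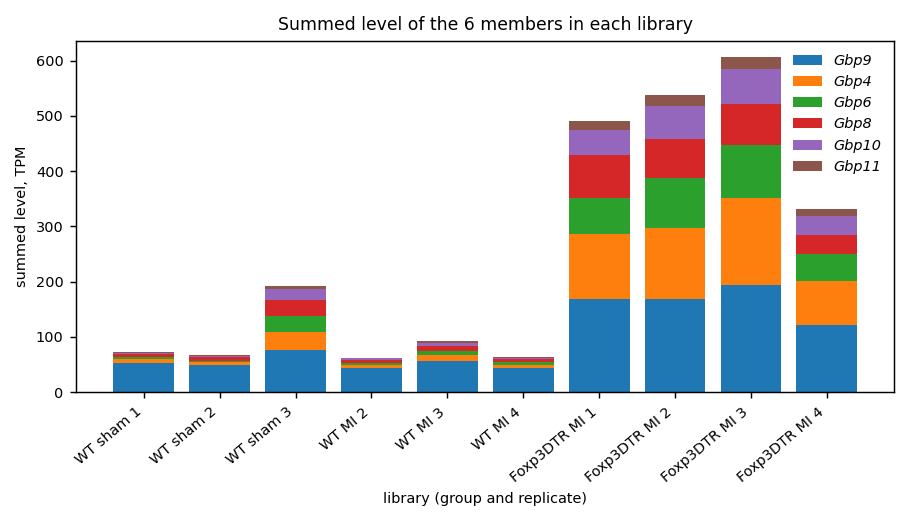
Summed level of the 6 members in TPM per library, stacked by gene from 0. The Foxp3DTR MI bars reach 331 to 606 TPM and the WT bars 62.3 to 193 TPM, and Gbp9 makes up most of every WT bar but that of WT sham 3.

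The difference in fold between Gbp9 and the others was described by their ratio within each library. No p-value is given for it because Gbp9 was singled out after its values were seen. Gbp9 was 8.40, 5.21 and 6.69 times the level of Gbp4 in WT MI 2, 3 and 4, but 1.43, 1.31, 1.22 and 1.51 times in Foxp3DTR MI 1 to 4. These ratios did not overlap between the groups, nor did those of Gbp9 to any of the other 4 members. On the log2 scale the ratios to Gbp4, Gbp6, Gbp8, Gbp10 and Gbp11 differed by -2.28, -2.14, -1.56, -2.03 and -1.43.

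Gbp6 and Gbp10, by contrast, kept nearly 1 ratio. Gbp6 was 1.20 to 1.37 times Gbp10 in WT sham, 1.27 to 1.52 times in WT MI and 1.40 to 1.52 times in Foxp3DTR MI (log2 difference between the MI groups of 0.11, two-sided exact permutation p = 0.229). With 3 and 4 libraries the smallest p this test can give is 0.0571, so it could not have reached 0.05. With most of the sequence of Gbp6 and Gbp10 shared, the near constancy of their ratio also depends on how shared reads were divided, which was not tested.

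TPM divides out length, but reads shared between members, above all between Gbp6 and Gbp10, limit how far neighbours in an order by level can be told apart. In WT sham and WT MI the order by mean was Gbp9, Gbp4, Gbp8, Gbp6, Gbp10 and Gbp11, each gene being higher than the next in 3 of 3 libraries of both groups. In Foxp3DTR MI Gbp6 and Gbp8 changed places, giving Gbp9, Gbp4, Gbp6, Gbp8, Gbp10 and Gbp11. Gbp6 exceeded Gbp8 in 3 of 4 libraries there, while every other step held in 4 of 4. Taken over whole groups, the ranges of neighbours in the order overlapped at all steps but Gbp9 to Gbp4 in both WT groups and Gbp10 to Gbp11 in both MI groups.

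The other Gbp genes, in the chromosome 3 cluster, showed the same contrast in the same libraries. Gbp2, at 51.3, 141 and 68.1 TPM in WT MI 2, 3 and 4 and 717, 729, 976 and 643 TPM in Foxp3DTR MI 1 to 4, was the most abundant Gbp gene in Foxp3DTR MI, and it rose by a log2 fold change of 3.00 ± 0.56 (SE, limma adjusted p = 0.0413). Gbp5, whose protein promotes assembly of the NLRP3 inflammasome, rose by 2.52 ± 0.44 (limma adjusted p = 0.0332), Gbp2b by 2.49 ± 0.43 (limma adjusted p = 0.0332) and Gbp7 by 1.97 ± 0.32 (limma adjusted p = 0.0287). Gbp3, at 1.50 ± 0.37, was not called (limma adjusted p = 0.0771). Thus 4 of 5 genes of the chromosome 3 cluster were called with a median of 2.49, against 6 of 6 and 3.07 on chromosome 5, a difference that was not tested. WT sham 3 was the highest sham library for all 5, Gbp2 for example standing at 65.0, 39.2 and 303 TPM in WT sham 1, 2 and 3.

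Of 12 genes of IFN-γ signalling, all tested, 2 rose and 0 fell between WT MI and Foxp3DTR MI, with a median log2 fold change of 0.01. The ligand Ifng was listed at 0.64, 0.52 and 0 TPM in WT MI 2, 3 and 4 and at 0.34, 7.24, 1.25 and 2.14 TPM in Foxp3DTR MI 1 to 4, so the groups overlapped (1.05 ± 0.66, limma adjusted p = 0.439). The receptor chain Ifngr1 was abundant, at 772, 674 and 637 TPM in WT MI and 652, 561, 625 and 591 TPM in Foxp3DTR MI (-0.43 ± 0.16, limma adjusted p = 0.196). These levels overlapped, but after scaling every Foxp3DTR MI library lay below every WT MI library. Its unadjusted limma p was 0.0201, where 17.7% of all genes were under 0.05. Downstream of the receptor the kinase Jak2 rose, from 70.0 to 78.2 TPM in WT MI to 123 to 162 TPM in Foxp3DTR MI (0.73 ± 0.08, limma adjusted p = 0.0151).

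Irf1, an interferon-induced transcription factor that acts on Gbp promoters, was at 77.6, 168 and 74.4 TPM in WT MI and 298, 312, 470 and 282 TPM in Foxp3DTR MI, without overlap, but missed the threshold (1.50 ± 0.36, limma adjusted p = 0.0724). Socs1, an inhibitor of the receptor's kinases that the pathway itself induces, rose most of the 12, from 4.69 to 6.52 TPM in WT MI to 34.7 to 65.5 TPM in Foxp3DTR MI (2.74 ± 0.37, limma adjusted p = 0.0153).

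GBPs reach vacuoles with the help of the ATG8 conjugation machinery of autophagy and of the IRGM GTPases. Of these 13 genes, 2 rose and 0 fell, with a median log2 fold change of -0.01, and both were IRGM genes. Igtp was at 52.7, 95.1 and 63.2 TPM in WT MI and 207, 226, 293 and 189 TPM in Foxp3DTR MI (1.47 ± 0.29, limma adjusted p = 0.0490). Irgm1 was at 113, 199 and 162 TPM in WT MI and 358, 388, 477 and 347 TPM in Foxp3DTR MI (1.09 ± 0.22, limma adjusted p = 0.0476). The third IRGM gene, Irgm2, was at 49.3, 80.9 and 41.2 TPM in WT MI and 147, 165, 217 and 130 TPM in Foxp3DTR MI but missed the threshold (limma adjusted p = 0.0597). None of the 10 conjugation and ATG8 genes was called, their log2 fold changes lying between -0.71 (Map1lc3a) and 0.16 (Gabarapl1).

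Among 9 inflammasome genes linked to GBPs none passed limma's adjusted threshold, with a median of 0.06. At an unadjusted p under 0.05, where 17.7% of all genes were, stood 5 of the 9, namely Casp1 (0.41 ± 0.09), Gm12250 (1.49 ± 0.34) and Pycard (0.62 ± 0.20) with positive values and Il1b (-1.25 ± 0.44) and Il18 (-0.59 ± 0.23) with negative ones. Over the 39 genes of the 4 lists the number called higher was 8. It ranged from 0 (without WT MI 2, and without Foxp3DTR MI 3) to 14 (without WT sham 3), and was 1 without WT MI 3 or Foxp3DTR MI 2 and 2 without WT MI 4, Foxp3DTR MI 1 or Foxp3DTR MI 4. The number of all genes called higher moved in the same fits, as given above.

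**Figure D4:**
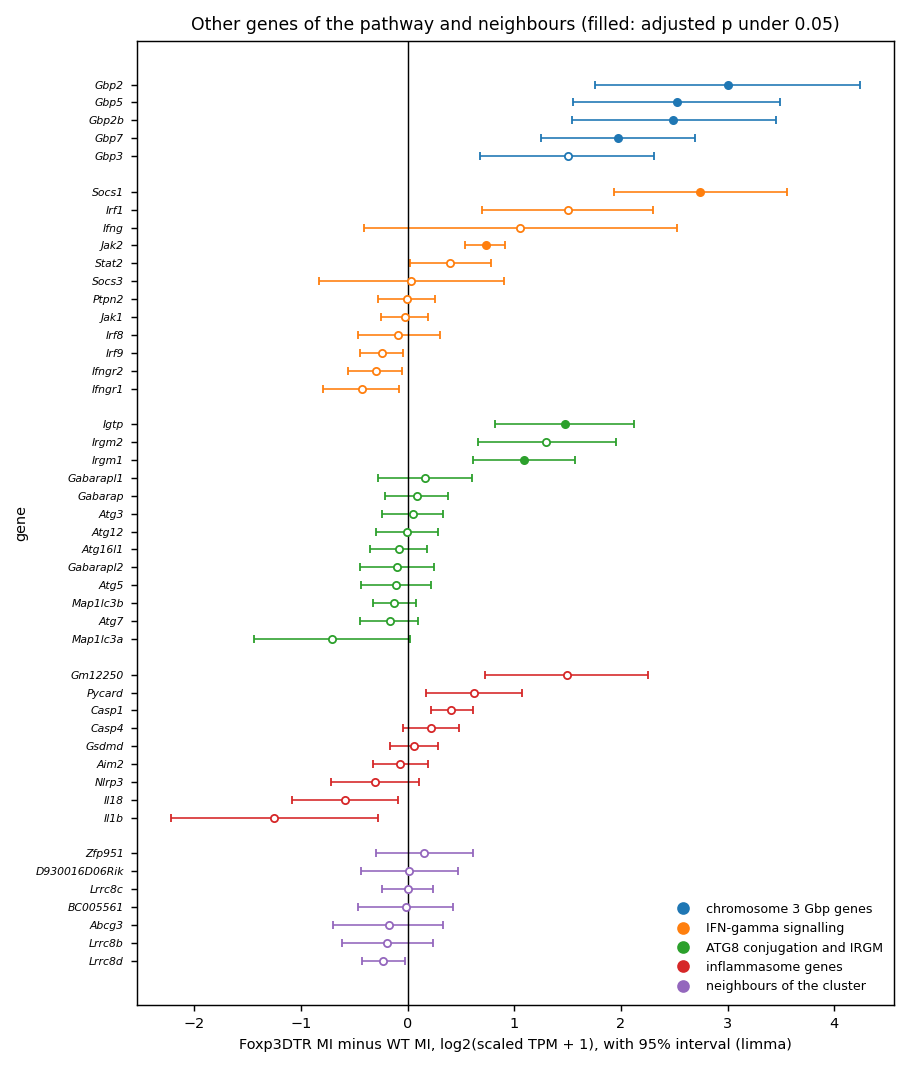
Difference between Foxp3DTR MI and WT MI in log2(scaled TPM + 1), with 95% intervals from limma, for the 39 listed genes and 7 neighbours of the cluster, filled where the adjusted p is under 0.05. The chromosome 3 Gbp genes and Socs1 lie farthest to the right, 8 of the 39 listed genes are filled, and all 7 neighbours lie between -0.23 and 0.15.

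Genes next to the cluster were not called. The 7 other genes within 500 kb all passed the filter, and limma called 0 of them, with log2 fold changes between -0.23 and 0.15, a median of -0.02 and a lowest adjusted p of 0.214. The nearest on either side were the transporter gene Abcg3, 31.4 kb away (-0.18 ± 0.23), and Lrrc8b, 69.3 kb away (-0.19 ± 0.19), a subunit gene of volume-regulated anion channels. Zfp951 was at 0.15 ± 0.20, Lrrc8c at 0.00 ± 0.11 and Lrrc8d at -0.23 ± 0.09. Lrrc8d was the 1 neighbour with an unadjusted p under 0.05, a bound that 17.7% of all genes passed. The number called remained 0 with any library left out and under each other setting.

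The genes whose pattern over the 10 libraries was most like the mean of the 6 members were Gbp2b (Pearson r = 0.994), Gbp7 (0.993), Gbp5 (0.988), Casp12 (0.985) and Gm4951 (0.985), a likeness that the separation of the groups shapes. Casp12, an inflammatory caspase gene on another chromosome, was at 3.09, 6.51 and 2.94 TPM in WT MI 2, 3 and 4 and 21.6, 21.4, 22.9 and 15.6 TPM in Foxp3DTR MI 1 to 4. Gm4951 was at 0.29, 0.98 and 0.54 TPM in WT MI and 64.1, 78.8, 53.7 and 20.7 TPM in Foxp3DTR MI.

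Summed T cell, NK cell and neutrophil markers were higher along with the members in Foxp3DTR MI and in WT sham 3. Dendritic cell genes summed to 43.7 to 63.7 TPM in WT MI, 13.4 to 30.0 TPM in Foxp3DTR MI and 45.6 TPM in WT sham 3. Flt3 had the highest mean of these genes in every group. Summed B cell genes overlapped between the MI groups. Counts of marker genes at an unadjusted p under 0.05 stand beside 17.7% of all genes. The neutrophil list (10 of 10 genes tested, with the granule genes Camp and Ngp and the calprotectin gene S100a9 called higher and 10 at an unadjusted p under 0.05) summed to 143 to 389 TPM in WT MI and 1218 to 2524 TPM in Foxp3DTR MI. The T cell list (9 of 10 genes tested, 0 called by limma, 7 at an unadjusted p under 0.05) and the NK cell list (7 of 7 tested, 0 called by limma, 5 at an unadjusted p under 0.05) did not overlap between the MI groups either, NK genes summing to 20.4 to 55.6 TPM in WT MI and 73.6 to 131 TPM in Foxp3DTR MI. Cd3e was listed at 0 TPM in WT MI 4, Cd3g in WT MI 2 and Camp in WT MI 3 and 4. WT sham 3, high in all 6 members, was also the highest sham library for T cell (168 TPM), NK cell (139 TPM) and neutrophil genes (1359 TPM).

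Within the MI groups the marker sums and the members did not always rank alike. Foxp3DTR MI 4, lowest in all 6 members, had the highest neutrophil sum of all libraries (2524 TPM) and the highest NK cell sum of its group (131 TPM). WT MI 3, highest of its group in all 6 members, had the lowest neutrophil sum (143 TPM) of all libraries but the highest T cell (20.9 TPM) and NK cell (55.6 TPM) sums of its group. WT sham 3 exceeded all 4 Foxp3DTR MI libraries in T cell and NK cell genes, while its members summed to 193 TPM against 331 TPM or more. The part of these markers, and of the lower monocyte marker sum in Foxp3DTR MI, in the levels of the members was not tested, and marker level and group cannot be told apart between Foxp3DTR MI and WT MI, whose T cell, NK cell and neutrophil sums did not overlap.

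**Figure D5:**
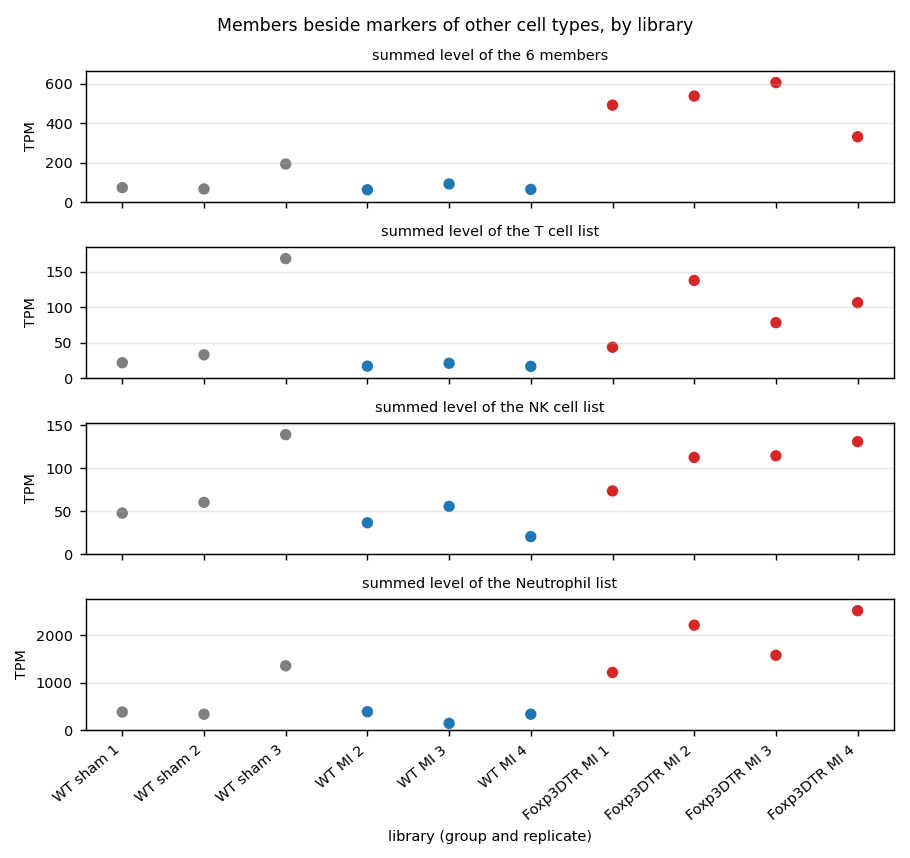
Summed level in TPM of the 6 members and of the T cell, NK cell and neutrophil marker lists in each library, each axis starting at 0 and points coloured by group. All 4 sums are higher in Foxp3DTR MI than in WT MI, WT sham 3 stands above the other sham libraries in each panel, and Foxp3DTR MI 4 is lowest of its group for the members (331 TPM) but highest for neutrophil genes (2524 TPM).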

How the data were processed

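RNA of sorted splenic monocytes was measured by single-end RNA sequencing in 10 libraries. Per the submitters' processing notes, CASAVA 1.4, cutadapt 1.1, STAR 2.5 and StringTie 1.3.0 were used with mm10. The authors deposited 1 table per library with coverage (a signal, mean depth over exons), FPKM and TPM per gene, and no counts. The sources used here do not say how reads shared by near copies were divided. The quotient of coverage and FPKM, constant within 1% for 84.9 to 85.2% of entries, gave the depth. TPM keeps no counting error, so single values carry no interval. TPM was summed per gene symbol, scaled per library by the median ratio to the geometric mean, and log2-transformed with a pseudocount of 1. Genes reaching 1 TPM in 3 libraries or more were fitted over all 3 groups with limma 3.58.1 in R 4.3.3, with a variance trend, two-sided tests and Benjamini-Hochberg adjustment over all genes. The study's own test, DESeq2, needs counts and was not used. Levels in the text are unscaled TPM. Leaving out the scaling shifted the median gene by 0.22 between the MI groups and by -0.17 between WT MI and WT sham, and 488 genes were called higher and 39 lower between the MI groups, against 89 and 56 with it, so that changes are relative to the median gene. Each library was taken as 1 animal. Same-numbered libraries of different groups did not as a rule deviate together (correlations of -0.19 to 0.189, 1 of 8 over 0.1). The highest was that of WT MI 3 with Foxp3DTR MI 3, and the labels do not say what equal numbers share. On simulated data for Foxp3DTR MI against WT MI, the fit recovered 62% of 50 genes given a log2 change of 1. It recovered 84% at a change of 2, 96% at 3 and 94% at 4, with 9 false calls among 12938 genes. The simulated noise was independent between genes. Effects that a library shares across genes were left out, so error in the real data may differ. Named genes were the members, listed genes past the threshold (up to 6 per list) with Irf1, Jak2, Ifngr1 and Ifng, the 5 nearest neighbours, the 5 genes most like the members by Pearson r and the chromosome 3 Gbp genes. Others were named after their values were seen. Within this rule 1 listed gene is not reported here and was left out of the list counts. The members and lists were chosen with earlier results of these data known. Sequences were read from GENCODE release M21 transcripts, and the P-loop was found by a pattern search of the translated coding sequence (Biopython 1.88). No RefSeq promoter or protein of the members was used here.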

Additional observations from a re-analysis of the deposited data

Results flagged for a closer look

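Gbp8 in Foxp3DTR MI 4 stood at 35.4 TPM, far below the other 3 libraries of its group (71.5 to 76.5 TPM), with a gap of 0.879 of the group's range, above the 95% critical value of Dixon's test for 4 samples. It was 1 of 11 Gbp genes checked in that group, and chance marks about 1 in 20. Foxp3DTR MI 4 was the lowest of its group in 6 of 6 members.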

How the results depend on the processing

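For Foxp3DTR MI against WT MI the members were higher in all fits, but the size of the log2 fold change moved. It was 2.79 for Gbp6, 2.501 for Gbp10 and 1.54 for Gbp11 with a pseudocount of 5, against 3.42, 3.24 and 2.44, and 1.89 for Gbp11 with FPKM. Against WT sham a pseudocount of 5 gave 2.56, 2.26 and 1.37, against 3.24, 3.02 and 2.16. Of 6 members, 0 passed with no filter on low values, and between 0 and 6 with 1 library left out. All 6 passed with each other scaling, FPKM, other pseudocounts, a filter at 5 TPM, only the 2 groups, a robust fit, array weights and the replicate block, 4 with no variance trend and 5 of 5 with Gbp6 and Gbp10 summed. For Foxp3DTR MI against WT sham the count of 5 became 2 with a pseudocount of 0.1, 0 with no filter, 1 with only the 2 groups, 2 with no variance trend, 3 with a robust fit, 2 with the replicate block and 3 of 5 with Gbp6 and Gbp10 summed, and 0 to 6 with 1 library left out. With no filter 24421 genes enter the adjustment. Calls over all genes fell in the same settings. Against WT sham 50 genes were called higher in the main fit, 14 with a pseudocount of 0.1 and 1 with no filter. The number was 7 with only the 2 groups, 19 with no variance trend, 45 with a robust fit and 14 with the replicate block. With Gbp6 and Gbp10 summed it was 41. Between the MI groups 2 genes were called higher with no filter and 50 with no variance trend. The cause of the losses was not tested. The labels do not say what same-numbered libraries share beyond the number. Between the MI groups the block took the SE of Gbp4 from 0.47 to 0.33 and that of Gbp9 from 0.16 to 0.11. It took the genes called between these groups from 89 higher and 56 lower to 68 and 13. For WT MI against WT sham 0 members passed in any fit, 0 to 0 with 1 library left out. With 1 library left out the lowest values were -0.77 for Gbp4 and Gbp6, -0.81 for Gbp8, -0.21 for Gbp9, -0.74 for Gbp10 and -0.59 for Gbp11. Without WT sham replicate 3 all values turned positive, at 0.31 for Gbp4, 0.76 for Gbp6, 0.23 for Gbp8, 0.059 for Gbp9, 0.66 for Gbp10 and 0.22 for Gbp11, and without WT MI replicate 2 Gbp6 was 0.02. Of the 39 pathway genes, fits chosen after seeing the data called 14 higher without scaling, 14 with only the 2 groups, 1 with no filter and 4 with no variance trend, against 8, and 0 to 14 with 1 library left out. The neighbours stood at 0 in all, 0 to 0 with 1 library left out. Low levels limit the precision of Gbp11 and of WT values under 5 TPM.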

Other observations

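Gbp4 and Gbp8 were close in level in WT mice and apart in Foxp3DTR mice, a pair picked after its values were seen. Gbp4 was 1.09, 1.11 and 1.14 times Gbp8 in WT sham 1, 2 and 3, 1.12, 1.22 and 1.14 times in WT MI 2, 3 and 4, and 1.54, 1.79, 2.13 and 2.27 times in Foxp3DTR MI 1 to 4. WT sham 3, in which both genes were 5.17 and 4.99 times as high as the mean of the other sham libraries, kept the ratio of the other WT libraries. The MI groups did not overlap and differed by 0.72 on the log2 scale, for which no p-value is given because of that choice.

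Summed dendritic cell genes were lower in Foxp3DTR MI than in WT MI. The summed level of 5 genes (Flt3, Zbtb46, Xcr1, Clec9a and Cd209a) was 43.7 to 63.7 TPM in WT MI and 13.4 to 30.0 TPM in Foxp3DTR MI, without overlap of the sums. Flt3 made up most of the mean sum, at 37.6 TPM in WT MI and 11.7 TPM in Foxp3DTR MI. The means of Zbtb46, Xcr1 and Clec9a were 1.42, 0.81 and 1.75 TPM in WT MI. In Foxp3DTR MI they were not lower, at 1.85, 1.33 and 1.87 TPM. Of the 5 genes 0 were called by limma, 2 were at an unadjusted p under 0.05 (17.7% of all genes were), and 2 had positive log2 fold changes. The B cell list (3 of 5 genes tested, with Cd79b called lower, a choice made after its values were seen) summed to 10.6 to 12.4 TPM in WT MI and 7.41 to 13.6 TPM in Foxp3DTR MI. The erythroid list (4 of 6 genes tested, 0 called by limma and 0 at an unadjusted p under 0.05) summed to 187 TPM in WT sham 3 and 54.1 TPM in WT sham 2 but to 5.19 to 27.8 TPM in the others. The Treg genes Foxp3, Il2ra and Ctla4 summed to 0.773 to 16.6 TPM over all libraries, with 0 of 2 tested called by limma and 0 at an unadjusted p under 0.05.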
